A study of Mus musculus with 7 samples.

Results

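Phase II conjugation enzymes attach a polar group to drugs, hormones and the products of metabolism, so that these can leave the cell in bile or urine. The genes described here were chosen by their symbols, as every gene whose annotated symbol names a member of the families Ugt, Sult, Gst or Mgst, and 47 of the 18193 genes measured were found in this way. Of these, 11 belong to Ugt (UDP-glucuronosyltransferases), 13 to Sult (cytosolic sulfotransferases), 20 to Gst (glutathione S-transferases) and 3 to Mgst (microsomal glutathione S-transferases). Gstcd, whose letters name a protein domain, was left out, and its level overlapped between iHepSC and MEF arrays.

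The Ugt enzymes sit in the membrane of the endoplasmic reticulum and pass glucuronic acid from UDP-glucuronate to bilirubin, steroids, bile acids and drugs. The Sult enzymes pass a sulfonate group from the donor PAPS to phenols, catecholamines and steroids, and the Gst and Mgst enzymes couple glutathione to reactive, electrophilic compounds. The liver is the main site of all 3 reactions, and hepatocytes are known for high levels of many of these enzymes, while several Gst genes are also active in fibroblasts.

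Expression was measured on 7 Affymetrix mouse expression arrays in 3 groups, all labelled with the strain C57BL/6. MEF (4 arrays) are fibroblasts of mouse embryos kept in serum medium, with no factor added. iHepSCs (2 arrays) are induced hepatic stem cells, made from such fibroblasts with Oct4 and Hnf4α carried by a lentiviral SFFV vector and then grown in HEP medium (with HGF, EGF, dexamethasone and nicotinamide), with 1 array at passage 3 (P3) and 1 at passage 20 (P20). The pHep array (1 array) holds primary hepatocytes of a 6-week-old male C57BL/6J mouse, isolated by collagenase perfusion. The labels place it in HEP medium, while the methods describe plating for some hours in Williams' medium E. Since no MEF array was in either medium, the cell type and the medium cannot be told apart. The labels do not say whether the iHepSC arrays come from 1 clone or whether the replicates are separate cultures. The study states that its detailed work went on with 1 clone, iHepSC-C3, while its array methods speak of clones at P3 and P20. The 2 iHepSC arrays are thus 2 passages, not shown to be separate conversions. The p-values below take in the spread between these arrays alone, and part of that spread may be technical.

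All values are log2 expression levels after RMA normalization, so a difference of 1 is a 2-fold change, and the lowest value of any array was 3.01. A level of 1 probe set cannot be compared with that of another, and each gene is therefore followed across arrays. Differences were tested with limma over all genes, and a gene was called where its adjusted p was under 0.05. With 1 array, pHep has no spread of its own, and that of MEF and iHepSCs was taken for it. The pHep and iHepSC differences share the MEF arrays.

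The labels were checked against markers. Against MEF, the 6 fibroblast genes were all lower in both iHepSCs and pHep, and 5 of 7 hepatocyte genes were higher in iHepSCs and 7 of 7 in pHep. Alb (albumin) lay at 5.35 to 5.89 in MEF, 13.74 and 14.39 in iHepSCs and 15.13 in pHep, while Serpina1b and Tat were called in pHep and not in iHepSCs. Of 8 Kupffer cell and macrophage genes, 6 were higher on the pHep array than in MEF and none was higher in iHepSCs, with Vsig4 at 11.57 and C1qa at 11.08 in pHep and Clec4f at 6.08. Their summed linear level was 1.03e+04 in pHep, 717 and 728 in iHepSCs and 1180 to 2270 in MEF. Of 4 measured cholangiocyte genes, Krt19 and Krt7 were higher and Sox9 lower in iHepSCs, and Krt7 and Sox9 were higher and Epcam lower in pHep. Krt19 was at 14.43 and 14.07 in iHepSCs, 9.70 in pHep and 7.78 to 9.67 in MEF. Of 6 stomach and intestine genes, 4 were higher in iHepSCs, with Tff1 at 13.10 and 13.31 against 9.73 to 9.93 in MEF. The part of other cell types in the iHepSC and pHep values was not tested. In all groups, fewer cells of a type and less RNA per cell cannot be told apart. MEF replicate 1 stood apart from MEF 2 to 4, with a correlation over all genes of 0.960 to 0.961 against 0.997 among the others, and with Mki67, a gene of dividing cells, at 8.18 against 11.36 to 11.57. Calls of conjugation genes that this array decides are given with and without it.

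Of the 47 genes, iHepSCs had 25 above MEF, 3 below and 19 not called. Among all genes measured, 18.2% were higher and 13.4% lower (31.6% either way), so the share of conjugation genes that rose (53.2%) was above that of all genes, and the share that fell (6.38%) was below it. The median difference was 0.77 over the 47 genes and 0.01 over all genes. Both iHepSC arrays lay above all MEF arrays for 26 genes (26.9% of all genes did so) and below them for 5 (23.7% of all genes), and the ranges overlapped for 16. The pHep array gave a like count, with 24 genes higher than MEF, 4 lower and 19 not called (14.8% and 15.5% of all genes were higher and lower, 30.3% either way). The study had listed 17 conjugation genes for drug metabolism from the same arrays, of which 15 are among the 47. Of those 15, 13 were higher in iHepSCs, which is no independent evidence. Of the 32 genes it had not listed, 12 (37.5%) were higher and 3 (9.38%) lower.

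**Figure D1:**
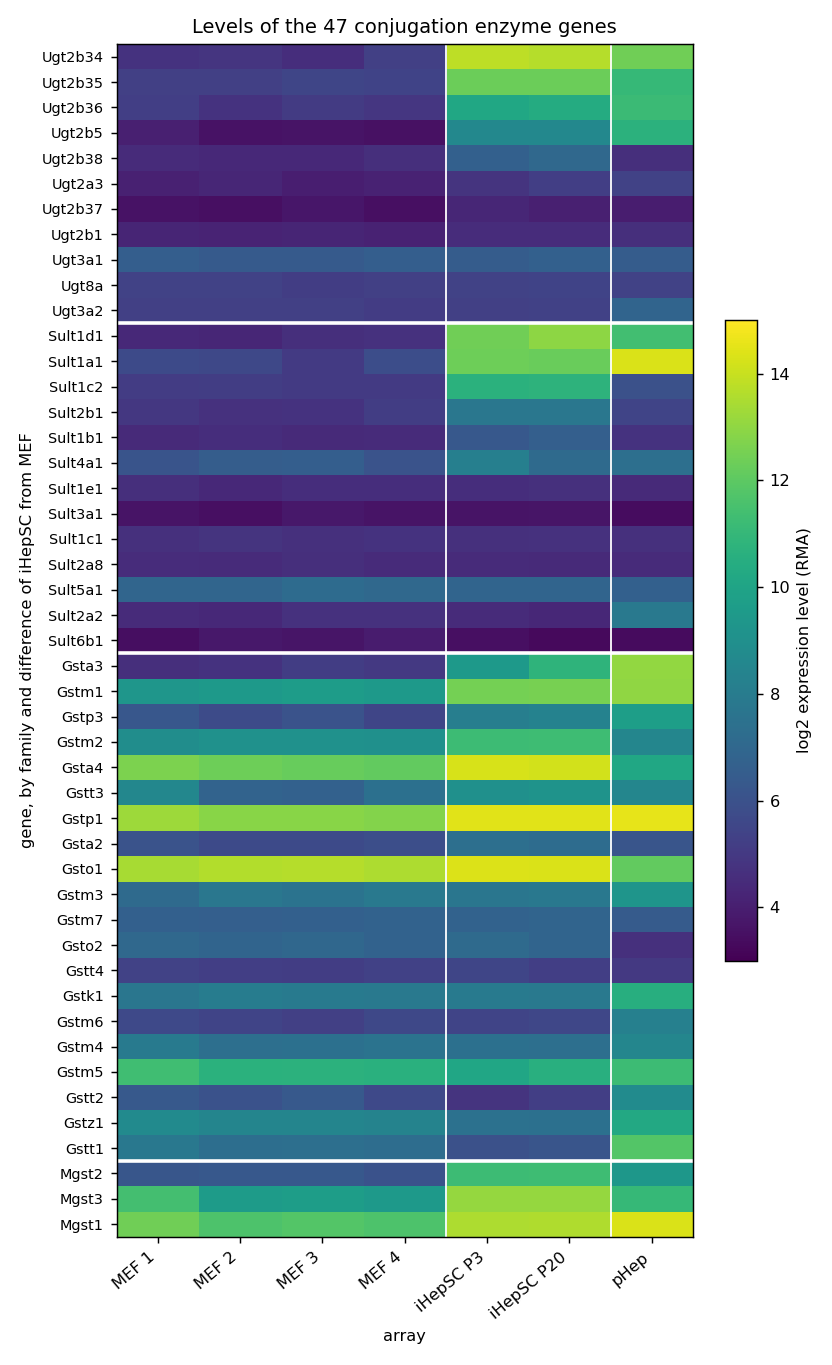
Log2 expression level (colour) of the 47 genes (rows, grouped by family from Ugt at the top to Mgst at the bottom, white lines between) on each of the 7 arrays (columns). Within a row, the iHepSC columns differ from the MEF columns in 28 genes by the test (59.6%, against 31.6% of all genes). The P3 and P20 columns, 1 array each, are within 0.5 of each other in 44 genes. Gsta3 and Sult4a1 differ by 1 or more between them, where 0.539% of all genes do. Colours compare arrays within a row, not rows.

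The Ugt family moved one way. Of its 11 genes, 8 (72.7%) were called higher and none lower in iHepSCs, where 18.2% and 13.4% of all genes were. These 8 are all the Ugt2 genes among the 11, of the subfamily that acts on steroids, bile acids and many drugs. A probe set shared by Ugt2a2 and Ugt2a1, which is not counted among them, was not called (0.14 in iHepSCs and 0.03 in pHep). Ugt3a1, Ugt3a2 and Ugt8a differed from MEF by 0.07 to 0.10 in iHepSCs and were not called. In pHep, Ugt3a2 was at 6.89 against 5.12 to 5.28 in MEF, a rise of 1.65 ± 0.12 (adjusted p = 0.000249). All 10 Ugt genes other than Ugt3a1 were under 6 on every MEF array.

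Ugt2b34 was read at 4.74, 4.83, 4.58 and 5.27 in MEF, 13.81 (P3) and 13.68 (P20) in iHepSCs and 12.40 in pHep. All iHepSC and pHep values lay far above the MEF range, and the difference of iHepSCs from MEF was 8.89 ± 0.20 (SE, adjusted p = 1.66e-06 by limma). A second probe set of the gene gave 9.25 in iHepSCs and 7.82 in pHep. Ugt2b35 lay between 5.27 and 5.49 in MEF, at 12.32 and 12.30 in iHepSCs and at 11.06 in pHep, so that the iHepSC arrays differed by 0.02 from each other and by 6.95 ± 0.10 from MEF (adjusted p = 6.51e-07). Both genes were also higher in iHepSCs than in pHep, Ugt2b34 by 1.34 ± 0.28 (adjusted p = 0.0239) and Ugt2b35 by 1.25 ± 0.15 (adjusted p = 0.00229). The first of these 2 calls was lost without MEF replicate 2 (adjusted p = 0.0583) and without either iHepSC array.

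Ugt2b36 and Ugt2b5 rose in both cell types with pHep the higher. Ugt2b36 was at 4.74 to 5.22 in MEF, 10.17 and 10.38 in iHepSCs and 11.18 in pHep, a rise of 5.29 ± 0.16 in iHepSCs and 6.20 ± 0.21 in pHep. Ugt2b5 was at 3.54 to 4.06 in MEF, 8.61 and 8.62 in iHepSCs and 10.69 in pHep, a rise of 4.91 ± 0.17 and 6.98 ± 0.22. For Ugt2b5 the iHepSC level was 2.07 ± 0.24 below pHep (adjusted p = 0.00202). For Ugt2b36 the gap of 0.91 ± 0.23 (adjusted p = 0.0419) was no longer called without MEF replicate 3 or 4 or either iHepSC array, or with arrays centred on Gapdh (adjusted p = 0.415).

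Ugt2b38 showed the opposite order. Levels of 4.38 to 4.60 were read in MEF, of 6.66 and 7.04 in iHepSCs and of 4.63 in pHep. The iHepSC arrays stood apart from all others, and iHepSCs rose by 2.40 ± 0.14 (adjusted p = 6.57e-05) while pHep differed from MEF by 0.18 ± 0.18 (adjusted p = 0.489). The gap between iHepSCs and pHep was itself called (2.22 ± 0.20, adjusted p = 0.00072). Ugt2a3, Ugt2b37 and Ugt2b1 rose by 0.87, 0.59 and 0.31 in iHepSCs but stayed under 6 on all 7 arrays, and the call of Ugt2b37 was lost without the P3 array (adjusted p = 0.1).

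**Figure D2:**
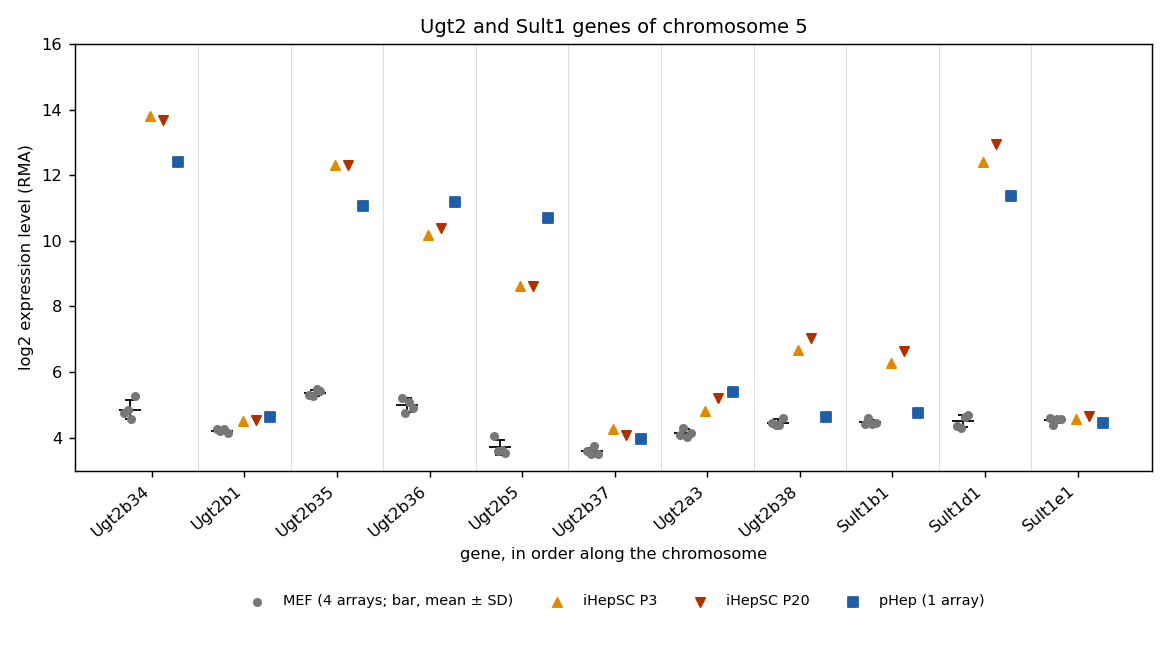
Log2 expression level (y axis) on each array for the 11 conjugation genes of chromosome 5, in their order along it (x axis). Grey points are MEF arrays with their mean ± SD, triangles the P3 and P20 iHepSC arrays, squares the pHep array. Ugt2b34, Ugt2b35, Ugt2b36, Ugt2b5 and Sult1d1 differ from the MEF mean by 4.91 to 8.89 in iHepSCs, while Ugt2b1 and Ugt2b37, which lie between rising genes, and Sult1e1, last in the order, differ by 0.08 to 0.59.

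The conjugation genes of chromosome 5 stand in the order Ugt2b34, Ugt2b1, Ugt2b35, Ugt2b36, Ugt2b5, Ugt2b37, Ugt2a3, Ugt2b38, Sult1b1, Sult1d1 and Sult1e1 in the RefSeq annotation (GRCm38.p6, used for order and promoters only, since the files name no build). Large and small differences lay side by side. Ugt2b34 and Ugt2b35 rose by 8.89 and 6.95 with Ugt2b1 (0.31) listed between them, and Ugt2b5 and Ugt2b38 rose by 4.91 and 2.40 with Ugt2b37 (0.59) and Ugt2a3 (0.87) between them. Sult1d1 rose by 8.16 beside Sult1e1, the estrogen sulfotransferase, at 0.08 ± 0.10. Ugt2b1, Ugt2b37, Ugt2a3 and Sult1e1 were under 6 on all 7 arrays, and whether their probe sets detect these genes was not tested.

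The promoters of the Ugt2b genes are shown because they carry a shared block, found when the windows were read and thus chosen after the data were known. RefSeq promoter windows (250 bases before to 50 after a start) were matched by Entrez gene identifier for 42 of the 47 genes. The block reads GTTA, any base, A, any base, then TTTAAC, and was searched on both strands. It occurs in 11 of 27025 genes with a window (0.0407%), and 6 of these 11 are Ugt2b genes, of 7 with a window. The 93 bases around it, upstream of the start, are printed 5′ to 3′ on the strand of the gene, with the block in capitals.
Ugt2b34 (GRCm38.p6 chr5:86906958-86907050, minus strand): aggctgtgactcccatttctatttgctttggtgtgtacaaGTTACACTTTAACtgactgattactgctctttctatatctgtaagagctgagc
Ugt2b35 (GRCm38.p6 chr5:87000750-87000842, plus strand): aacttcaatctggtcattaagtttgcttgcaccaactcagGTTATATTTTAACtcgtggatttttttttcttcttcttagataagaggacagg
Ugt2b36 (GRCm38.p6 chr5:87092567-87092659, minus strand): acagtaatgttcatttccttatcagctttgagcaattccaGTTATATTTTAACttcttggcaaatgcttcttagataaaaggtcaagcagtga
Ugt2b5 (GRCm38.p6 chr5:87140349-87140441, minus strand): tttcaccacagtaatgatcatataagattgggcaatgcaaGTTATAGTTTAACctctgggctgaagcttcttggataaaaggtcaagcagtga
Ugt2b37 (GRCm38.p6 chr5:87254814-87254906, minus strand): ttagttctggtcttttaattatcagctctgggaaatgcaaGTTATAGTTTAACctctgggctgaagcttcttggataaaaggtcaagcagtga
Ugt2b38 (GRCm38.p6 chr5:87424215-87424307, minus strand): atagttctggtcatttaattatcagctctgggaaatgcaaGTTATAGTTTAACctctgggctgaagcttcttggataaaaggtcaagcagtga

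The block begins 61 to 78 bases before the start in all 6 genes. Over these 93 bases, Ugt2b37 and Ugt2b38 were identical at 91 positions (97.8%), and each was identical to Ugt2b5 at 70 (75.3%). Ugt2b37 differed from MEF by 0.59 ± 0.12 in iHepSCs and 0.39 ± 0.15 in pHep, Ugt2b38 by 2.40 and 0.18, and Ugt2b5 by 4.91 and 6.98. Each gene has its own probe set, and that of Ugt2b37 read 3.49 to 4.28 on all arrays, near the lowest value of 3.01. Whether it detects the gene was not tested. The study lists larger ratios to MEF for Ugt2b37 in both cell types. Ugt2b34 and Ugt2b35, which rose most in iHepSCs, were identical to each other at 46 of the 93 positions (49.5%). The 7th Ugt2b gene, Ugt2b1, does not hold these letters in its window and differed by 0.31 in iHepSCs and 0.41 in pHep. Its levels were also low, at 4.15 to 4.62 on all arrays. A match is a description and not a shown binding site. The site of Hnf1 searched by its usual letters on both strands (GTTAAT, any 2 bases, then TTAAC) was found in 1 of the 42 genes, Ugt3a1, and in 0.0481% of all genes. The block cannot match at the same position as these letters, so this search cannot tell whether the block resembles a Hnf1 site. The core of the Hnf4a site, CAAAGTCCA, was searched likewise and was in the window of 1 gene, Sult1b1 (0.555% of all genes). These Ugt2b genes are close relatives, and whether a probe set also reads a neighbour was not tested.

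Genes of the Ugt1 locus were not counted, since its probe sets name 8 genes at once that share their last exons. The 3 such probe sets were higher in iHepSCs than in MEF by 3.59 to 4.31 and in pHep by 2.37 to 2.68, all 6 called in a fit over all probe sets. The first read 10.87, 9.78, 9.68 and 9.81 in MEF, 13.88 and 13.77 in iHepSCs and 12.51 in pHep. The iHepSC values lay above pHep on all 3 probe sets, and 1 of them passed the test of that gap (1.63 ± 0.23, adjusted p = 0.00625). A probe set of Ugt2a2 and Ugt2a1 lay between 3.88 and 4.30 on all arrays.

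Of the 13 Sult genes, 6 (46.2%) were higher in iHepSCs and none lower, and 4 (30.8%) were higher in pHep and none lower. Over all genes, 18.2% were higher and 13.4% lower in iHepSCs, and 14.8% and 15.5% in pHep. Sult1d1, which sulfates catecholamines and related compounds, was at 4.37, 4.31, 4.64 and 4.69 in MEF, 12.39 (P3) and 12.94 (P20) in iHepSCs and 11.38 in pHep. Its rise of 8.16 ± 0.20 in iHepSCs (adjusted p = 2.01e-06) and 6.87 ± 0.25 in pHep left no overlap with MEF, and a second probe set rose by 6.23 and 4.68. Sult1a1, the phenol sulfotransferase, was at 5.04 to 5.85 in MEF, 12.33 and 12.25 in iHepSCs and 14.34 in pHep. It rose by 6.75 ± 0.23 in iHepSCs (adjusted p = 6.9e-06) and by 8.79 ± 0.30 in pHep (adjusted p = 1.17e-05), and iHepSCs stayed 2.05 ± 0.32 below pHep (adjusted p = 0.00797, 0.0524 with arrays centred on Gapdh).

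Sult1c2 and Sult2b1 rose mainly in iHepSCs. Sult1c2 was at 5.12, 5.16, 5.04 and 5.04 in MEF, 10.65 and 10.78 in iHepSCs and 5.96 in pHep. The pHep value was above the MEF range by less than 1 (0.87 ± 0.12, adjusted p = 0.00364, or 0.0935 with arrays centred on Gapdh), and the gap between iHepSCs and pHep was 4.76 ± 0.14 (adjusted p = 1.06e-05). Sult2b1, known for sulfating cholesterol in skin, was at 4.71 to 5.16 in MEF, 7.78 and 7.77 in iHepSCs and 5.44 in pHep, a gap of 2.33 ± 0.21 between the last groups (adjusted p = 0.000771). Sult1b1, which acts on thyroid hormones, rose from 4.41 to 4.59 in MEF to 6.29 and 6.64 in iHepSCs and was 4.74 in pHep. All of these pHep values lay nearer to MEF than to iHepSCs.

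Sult2a2, of the subfamily that sulfates bile acids and steroids such as DHEA, had the reverse order. It was at 4.36 to 4.70 in MEF, 4.48 and 4.33 in iHepSCs and 7.85 in pHep, and the iHepSC level was 3.44 ± 0.19 below pHep (adjusted p = 0.000107). Its relative Sult2a8 lay between 4.42 and 4.60 on all arrays. Sult4a1, a brain member with no well-known substrate, was at 6.05 to 6.60 in MEF, 8.17 (P3) and 7.13 (P20) in iHepSCs and 7.40 in pHep, with a rise of 1.32 ± 0.32 in iHepSCs (adjusted p = 0.0241) that was not called without MEF replicate 4 (0.0653) or without the P3 array (0.127). The second probe set of Sult4a1 rose by 0.79 in iHepSCs and differed by 0.11 in pHep. Sult1c1, Sult1e1, Sult2a8, Sult3a1 and Sult6b1 were under 6 on all 7 arrays and, like Sult5a1 at 6.68 to 7.18, were not called in either comparison.

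**Figure D3:**
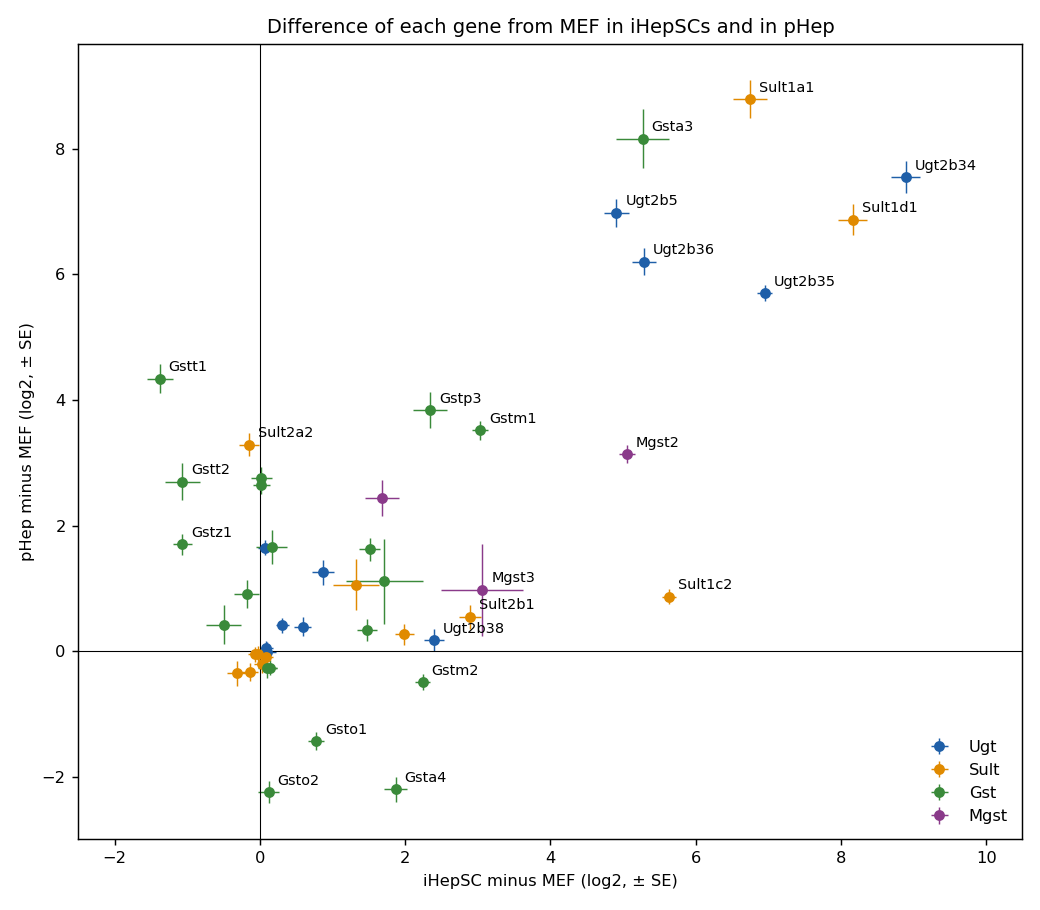
Difference from MEF in log2 units (± SE) in iHepSCs (x axis) and in pHep (y axis) for the 47 genes, coloured by family. The upper right holds the 15 genes higher in both, the lower right Gsta4, Gstm2 and Gsto1, and the upper left Gstt1, Gstt2 and Gstz1. Both axes use the same MEF arrays.

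The Gst family was split. Of 20 genes, 8 were higher and 3 lower in iHepSCs, and 11 were higher and 4 lower in pHep. Of the 20, 4 (Gsta4, Gstm5, Gsto1 and Gstp1) were at 10 or more on all MEF arrays. Over all 47 genes, 3 were called higher in iHepSCs and lower in pHep (0.874% of all genes) and 3 lower in iHepSCs and higher in pHep (0.748% of all genes), and all 6 are Gst genes.

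Gsta4, which detoxifies 4-hydroxynonenal, a product of lipid peroxidation, was at 12.63, 12.37, 12.21 and 12.14 in MEF, 14.26 and 14.16 in iHepSCs and 10.14 in pHep. The iHepSC arrays were above and the pHep array below all MEF arrays, with differences of 1.87 ± 0.16 (adjusted p = 0.000314) and -2.20 ± 0.20 (adjusted p = 0.000651) and a gap of 4.07 ± 0.22 between them. Gsto1, an omega enzyme with thioltransferase activity, was at 13.42 to 13.68 in MEF, 14.35 and 14.31 in iHepSCs and 12.13 in pHep, differences of 0.77 ± 0.11 and -1.43 ± 0.14. Its second probe set rose by 0.52 in iHepSCs and was not called in pHep (-0.19). Gstm2 was at 8.87 to 9.09 in MEF, 11.23 and 11.25 in iHepSCs and 8.52 in pHep. Its rise of 2.24 ± 0.10 in iHepSCs was called (adjusted p = 2.28e-05), while its fall in pHep of 0.49 (adjusted p = 0.036) was lost without MEF replicate 2, 3 or 4 or either iHepSC array, with adjusted p from 0.0713 to 0.0854.

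Gstt1, which acts on small halogenated compounds, was at 7.82, 7.33, 7.36 and 7.29 in MEF, 5.97 and 6.18 in iHepSCs and 11.79 in pHep. The iHepSC arrays lay below and the pHep array above all MEF arrays, at -1.38 ± 0.18 (adjusted p = 0.00198) and 4.34 ± 0.23 (adjusted p = 6.26e-05). Gstt2 was at 5.67 to 6.34 in MEF, 4.81 and 5.23 in iHepSCs and 8.79 in pHep, and Gstz1, the maleylacetoacetate isomerase of tyrosine breakdown, was at 8.38 to 8.76, 7.46 and 7.44, and 10.22. Both fell by 1.07 in iHepSCs (adjusted p = 0.0163 and 0.00161). Control probe sets of Gapdh, a common reference gene, had a mean 0.49 lower in iHepSCs than in MEF. With arrays centred on that mean, the 3 falls kept their sign at -0.89, -0.58 and -0.58. None of them was then called (adjusted p = 0.0684, 0.187 and 0.129). The fall of Gstt2 was also not called without the P3 array (0.133) or without the P20 array (0.0515). The gaps between iHepSCs and pHep, of -5.72 ± 0.25 for Gstt1, -3.77 ± 0.33 for Gstt2 and -2.77 ± 0.19 for Gstz1, were called in both scalings.

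**Figure D4:**
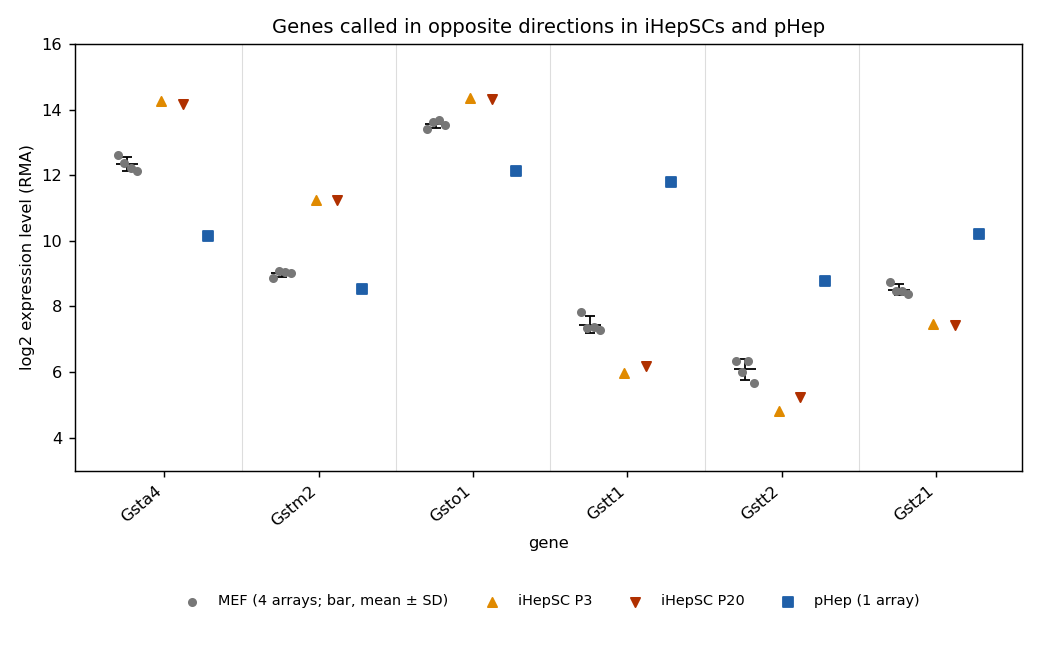
Log2 expression level (y axis) on each array for the 6 Gst genes called in opposite directions in iHepSCs and pHep against MEF (x axis). Grey points are MEF arrays with their mean ± SD, triangles the P3 and P20 iHepSC arrays and squares the pHep array. In Gsta4, Gstm2 and Gsto1 the triangles lie above and the square below the MEF points, and in Gstt1, Gstt2 and Gstz1 the reverse.

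The other Gst genes higher in iHepSCs were Gsta2, Gsta3, Gstm1, Gstp1 and Gstp3. Gsta3, an alpha enzyme that inactivates aflatoxin epoxide in mouse liver, was at 4.61 to 5.17 in MEF, 9.51 (P3) and 10.80 (P20) in iHepSCs and 13.05 in pHep. It rose by 5.27 ± 0.36 in iHepSCs (adjusted p = 0.000134) and 8.16 ± 0.47 in pHep (adjusted p = 8.51e-05), and its second probe set rose by 2.69 and 6.15. Gstm1, the main mu enzyme of mouse liver, was at 9.32 to 9.63 in MEF, 12.47 and 12.54 in iHepSCs and 13.00 in pHep, and its 4 probe sets were all called higher in both, by 0.99 to 3.18 in iHepSCs on the other 3. Gstp1 was at 12.79 to 13.25 in MEF, 14.44 and 14.47 in iHepSCs and 14.56 in pHep, so that iHepSCs and pHep were within 0.11 ± 0.21 of each other. Gstp3 was at 5.52 to 6.28 in MEF, 8.14 and 8.34 in iHepSCs and 9.74 in pHep. The probe set shared by Gsta1, Gsta2 and Gm3776 read 7.84 to 8.28 in MEF, 12.60 and 12.62 in iHepSCs and 9.17 in pHep, a rise of 4.57 ± 0.14, against 1.47 ± 0.14 for the probe set that names Gsta2 alone.

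The mu genes stand in 1 run on chromosome 3, in the order Gstm5, Gstm7, Gstm6, Gstm3, Gstm2, Gstm1 and Gstm4. In iHepSCs the neighbours Gstm2 and Gstm1 rose by 2.24 and 3.03, and the other 5 were not called, at -0.50 to 0.16. In pHep, Gstm6, Gstm3, Gstm1 and Gstm4 were higher than MEF by 2.75, 1.66, 3.52 and 0.91. Gstm6 was at 5.25 to 5.66 in MEF, 5.47 and 5.54 in iHepSCs and 8.24 in pHep, and Gstk1, an enzyme of mitochondria and peroxisomes, at 7.69 to 8.03, 7.92 and 7.86, and 10.53. In both genes the iHepSC arrays lay within the MEF range and more than 2 below pHep. Gstm3 and Gstm7 depend on the probe set. The second probe set of Gstm3 was not called in pHep (0.60), and the second of Gstm7 rose by 0.92 in iHepSCs and 2.65 in pHep, while the one used differed by 0.14 and -0.26. Gsto2, the relative of Gsto1, was at 6.75 to 7.04 in MEF, 7.17 and 6.89 in iHepSCs and 4.67 in pHep.

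All 3 Mgst genes were higher in iHepSCs, where 18.2% of all genes were. Mgst2, which can make leukotriene C4, was at 6.21, 6.31, 6.30 and 6.04 in MEF, 11.24 and 11.28 in iHepSCs and 9.36 in pHep. Its rise was 5.05 ± 0.11 in iHepSCs (adjusted p = 1.64e-06) and 3.14 ± 0.15 in pHep (adjusted p = 3.64e-05), and iHepSCs exceeded pHep by 1.90 ± 0.16 (adjusted p = 0.000567). Mgst1, abundant in the membranes of liver endoplasmic reticulum and mitochondria, was at 12.38, 11.65, 11.77 and 11.65 in MEF, 13.51 and 13.56 in iHepSCs and 14.30 in pHep, a rise of 1.68 ± 0.23 and 2.44 ± 0.29. Its second probe set lay between 4.48 and 4.87 on all arrays. Mgst3 was at 11.41 on MEF replicate 1 and 9.59, 9.67 and 9.50 on the others, 13.11 and 13.09 in iHepSCs and 11.02 in pHep. With all arrays it rose by 3.06 ± 0.56 in iHepSCs (adjusted p = 0.00814) and was not called in pHep (0.98 ± 0.73), and without MEF replicate 1 it rose by 3.52 ± 0.08 in iHepSCs and by 1.44 ± 0.10 in pHep (adjusted p = 3.31e-05). The call in iHepSCs was lost without the P3 array (0.0681) or the P20 array (0.0707). Its second probe set rose by 1.00 in iHepSCs and differed by 0.17 in pHep.

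Leaving out MEF replicate 1 added 2 calls of iHepSCs against MEF, Gstt3 and Sult6b1. Gstt3 was at 8.57 on that array, 6.83, 6.71 and 7.43 on the other MEF arrays, 9.04 and 9.15 in iHepSCs and 8.49 in pHep. With that array its difference in iHepSCs was 1.71 ± 0.53 (adjusted p = 0.0524), and without it Gstt3 was higher in iHepSCs by 2.11 ± 0.21 (adjusted p = 0.000117) and in pHep by 1.50 ± 0.26. Sult6b1, under 4 on all arrays, was then lower by 0.40 (adjusted p = 0.0113). In pHep, 29 genes were then higher and 6 lower, and Gsta2, Gstm5, Gstt3, Mgst3, Sult2b1, Sult5a1 and Sult6b1 joined the calls. In iHepSCs against pHep, 15 genes were then higher and 17 lower in place of 13 and 14, by 5 added calls. Mgst3 (2.08 ± 0.11, adjusted p = 1.36e-05) and Gstm7 (0.40, adjusted p = 0.0308) were higher in iHepSCs, and Mgst1 (-0.76, adjusted p = 0.00165), Gstm5 (-0.92, adjusted p = 0.00714) and Gstm1 (-0.49, adjusted p = 0.0135) were lower. With all arrays the adjusted p of these 5 lay between 0.0979 and 0.18. No call of a conjugation gene was lost in the 3 comparisons by leaving that array out.

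Taking both comparisons side by side, 15 genes were higher than MEF in iHepSCs and in pHep (8.68% of all genes), 0 were lower in both (8.15% of all genes), 7 were called only as higher in iHepSCs, 6 only as higher in pHep, 1 only as lower in pHep, 6 in opposite directions and 12 in neither. Set directly against pHep, iHepSCs had 13 genes higher, 14 lower and 20 not called, where 9.26% and 7.89% of all genes were higher and lower (17.1% either way). By family, 3 Ugt genes were higher and 3 lower, 4 Sult genes were higher and 2 lower, 5 Gst genes were higher and 9 lower, and Mgst2 was higher. The median difference from pHep was 0.04 over the 47 genes and 0.15 over all genes. All of these rest on 1 pHep array.

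The passages were each measured once, so their difference has no test. P20 and P3 were within 0.5 for 44 of the 47 genes, and the share of all genes within 0.5 was not counted. Gsta3 was 1.30 higher at P20 (9.51 and 10.80) and Sult4a1 1.04 lower (8.17 and 7.13), where 0.539% of all genes differed by 1 or more. The second probe set of Gsta3 differed by 1.37, and that of Sult4a1 by -0.16 (6.73 and 6.57), so the Sult4a1 difference rests on 1 probe set. Sult1d1, at 12.39 and 12.94, was the other gene over 0.5.

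Conjugation also needs the donors of each group, and the genes that supply them were read as lists chosen by function. For glucuronidation, 1 of 5 measured genes was higher and 2 were lower in iHepSCs. Slc35d1, which carries UDP-glucuronate into the endoplasmic reticulum, rose by 1.82 ± 0.26 in iHepSCs and by 2.59 in pHep. Ugdh, which makes UDP-glucuronate, was at 11.73 to 12.73 in MEF, 13.29 and 13.09 in iHepSCs and 12.06 in pHep and was not called in either. Its lowest value is that of MEF replicate 1, and the other MEF arrays were at 12.67 to 12.73. Without that array Ugdh was 0.49 ± 0.09 above MEF in iHepSCs (adjusted p = 0.00252), and in pHep its difference was -0.64 ± 0.11 (adjusted p = 0.0024). Ugp2, of the step before it, fell by 0.38 in iHepSCs (adjusted p = 0.0327), a call lost without MEF replicate 2, 3 or 4 or either iHepSC array, and its difference was 0.11 with arrays centred on Gapdh. Gusb, the lysosomal beta-glucuronidase that cuts glucuronides, was at 10.79, 10.24, 10.17 and 10.17 in MEF, 4.35 and 4.20 in iHepSCs and 10.53 in pHep. Its fall of 6.07 in iHepSCs (adjusted p = 6.69e-06) left both arrays far below the MEF range, while pHep lay within the MEF range, which MEF replicate 1 tops (without it, 0.34 in pHep, adjusted p = 0.0296).

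For sulfation, 4 of 7 measured genes (57.1%) were higher in iHepSCs and none lower, where 18.2% and 13.4% of all genes were. Without MEF replicate 1, Slc35b2 of this list was called higher in iHepSCs as well (0.36, adjusted p = 0.00823). Slc26a2, a sulfate transporter, was at 9.96 on MEF replicate 1 and 8.05 to 8.36 on the others, 13.86 and 13.93 in iHepSCs and 9.41 in pHep, a rise of 5.28 ± 0.56 in iHepSCs (adjusted p = 0.000826). In pHep it was called only without MEF replicate 1 (1.25, adjusted p = 0.000258). Papss2, which makes PAPS, rose by 1.40 in iHepSCs (adjusted p = 0.0113, lost without either iHepSC array) and was 7.92 in pHep, below all MEF arrays, where it was called only without MEF replicate 1 (-0.89, adjusted p = 0.000261). Bpnt1, which clears the spent donor, rose by 1.38 and Slc35b3, a PAPS carrier, by 0.70, while Papss1 was not called.

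For glutathione, 4 of 9 measured genes (44.4%) were higher in iHepSCs and 4 (44.4%) in pHep, and none was lower with all arrays. Over all genes, 18.2% were higher and 13.4% lower in iHepSCs, and 14.8% and 15.5% in pHep. Without MEF replicate 1, Slc7a11 of this list was called lower, at -0.77 in iHepSCs (adjusted p = 0.000111) and -1.21 in pHep. Chac1 and Chac2 were then called higher in both, and Gss in pHep. Gclc, the catalytic subunit of the rate-limiting enzyme, was at 9.75 to 10.14 in MEF, 12.93 and 13.04 in iHepSCs and 12.90 in pHep, so that iHepSCs and pHep differed by 0.09. Its partner Gclm rose by 1.35 and 2.74. Gsr, glutathione reductase, rose from 8.93 to 8.99 in MEF to 11.96 and 11.45 in iHepSCs and 10.00 in pHep. Of 6 genes of the mercapturate steps, which process glutathione conjugates further, Acy3 (16.7%) was higher in iHepSCs by 1.15. Anpep and Dpep1 (33.3%) were lower, at -0.80 and -0.73. Without the P3 array none of these 3 was called, and with arrays centred on Gapdh the falls of Anpep and Dpep1 were not.

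**Figure D5:**
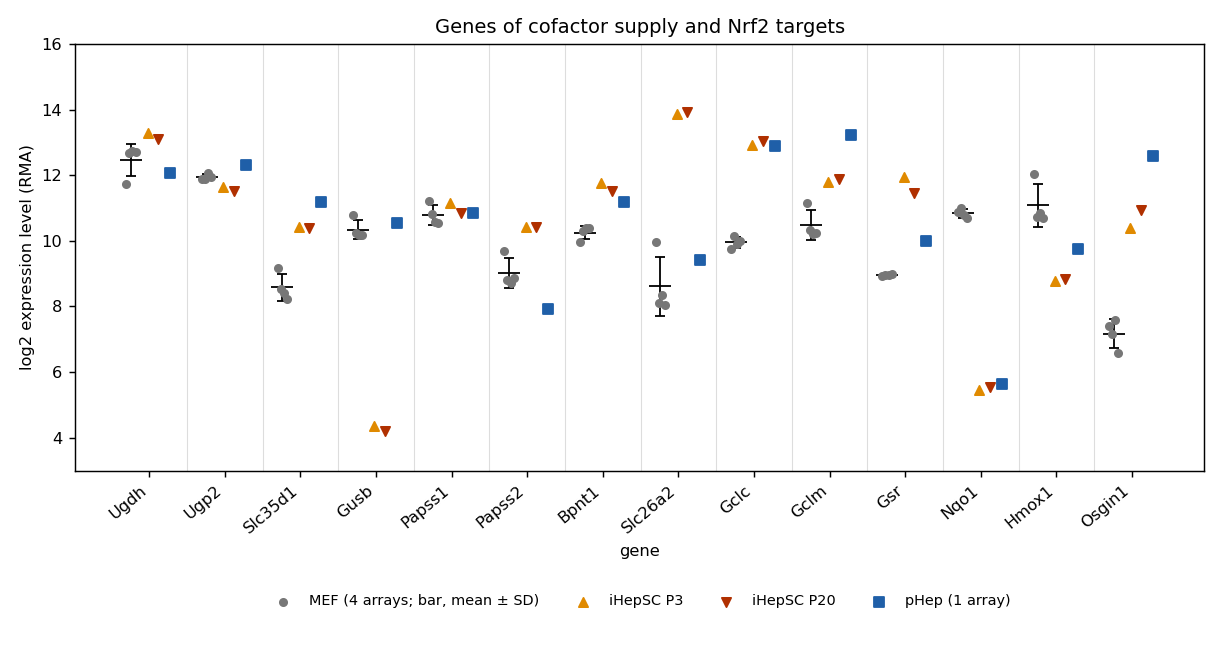
Log2 expression level (y axis) on each array for 14 genes of UDP-glucuronate, PAPS and glutathione supply and of Nrf2 targets (x axis). Grey points are MEF arrays with their mean ± SD, triangles the P3 and P20 iHepSC arrays and squares the pHep array. Gusb falls by 6.07 in iHepSCs alone, Nqo1 by more than 5 in iHepSCs and pHep, and Gclc and Gsr lie above all MEF arrays in both.

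A list of 11 other measured enzymes held acyl- and methyltransferases and, though these add water and conjugate nothing, the epoxide hydrolases Ephx1 and Ephx2. Of these 11, 4 (36.4%) were higher and 2 (18.2%) lower in iHepSCs, and 9 (81.8%) were higher and none lower in pHep. Over all genes the shares were 18.2% and 13.4% in iHepSCs and 14.8% and 15.5% in pHep. Ephx1 was called higher in both only without MEF replicate 1 (1.11 and 1.31). Ephx2, the soluble epoxide hydrolase, was at 7.16 to 7.53 in MEF, 12.65 and 12.90 in iHepSCs and 10.40 in pHep, and Tpmt, thiopurine methyltransferase, rose by 1.69 and 2.01. Nnmt and As3mt, methyltransferases of nicotinamide and arsenic, were lower in iHepSCs, at -1.76 and -1.12, and higher in pHep by 2.92 and 3.68. The call of Nnmt in iHepSCs was lost without MEF replicate 3 (adjusted p = 0.0503) and without either iHepSC array, and that of As3mt with arrays centred on Gapdh (0.0837). Glyat, which joins glycine to benzoate, rose by 0.68 in iHepSCs and 5.87 in pHep.

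Several Gst genes are known targets of Nrf2 (Nfe2l2), the regulator of the antioxidant response, whose own level rose by 1.14 ± 0.18 in iHepSCs and 1.97 in pHep. Of 8 measured targets outside the Gst family, 3 were higher (Gclc, Gclm and Osgin1) and 4 lower (Nqo1, Hmox1, Txnrd1 and Srxn1) in iHepSCs. Nqo1 was at 10.69 to 10.99 in MEF, 5.45 and 5.55 in iHepSCs and 5.64 in pHep, a fall of 5.34 (adjusted p = 1.62e-06). Hmox1 fell by 2.29 in iHepSCs (adjusted p = 0.00692), a call lost without either iHepSC array, and Osgin1 rose by 3.48 in iHepSCs and 5.41 in pHep. In pHep, 3 of the 8 targets (37.5%) were higher and 2 (25.0%) lower, where 14.8% and 15.5% of all genes were. Any part of Nrf2 in the Gst levels was not tested.

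The core of the antioxidant response element that Nrf2 binds, TGACNNNGC, was in the promoter window of 4 of the 42 genes (9.52%) and of 14.0% of all genes, searched on both strands. Of the 23 genes higher in iHepSCs that have a window, 2 hold it, Gsta3 and Mgst1, and of the other 19 also 2, Gstm5 and Gstm7. The stretches upstream of the start are printed so that the element can be seen, in capitals, with its flanks. In Mgst1 it stands on the opposite strand. The Gstm7 stretch precedes the start of 1 transcript and lies inside the annotated gene, downstream of its 5′ end.
Gsta3 (GRCm38.p6 chr1:21240424-21240512, plus strand): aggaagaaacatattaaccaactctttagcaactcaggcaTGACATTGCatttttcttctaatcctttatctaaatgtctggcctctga
Mgst1 (GRCm38.p6 chr6:138140431-138140519, plus strand): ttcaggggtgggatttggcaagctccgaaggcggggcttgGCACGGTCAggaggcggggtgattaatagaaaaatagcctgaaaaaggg
Gstm5 (GRCm38.p6 chr3:107895772-107895853, plus strand): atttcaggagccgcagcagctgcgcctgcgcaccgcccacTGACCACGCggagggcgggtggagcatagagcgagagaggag
Gstm7 (GRCm38.p6 chr3:107931695-107931783, minus strand): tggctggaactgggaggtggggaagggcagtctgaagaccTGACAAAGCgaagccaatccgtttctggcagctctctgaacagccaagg

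Gsta3 rose by 5.27 and Mgst1 by 1.68 in iHepSCs, while Gstm5 was at 10.61 to 11.30 in MEF, 10.09 and 10.55 in iHepSCs and 11.24 in pHep and was not called, like Gstm7. Of 12 measured regulators of conjugation genes, 8 (66.7%) were higher in iHepSCs and 8 (66.7%) in pHep, and none was lower. Over all genes, 18.2% were higher in iHepSCs and 14.8% in pHep. Without MEF replicate 1, Ahr, Arnt and Rxra were also called higher in iHepSCs (1.05, 0.28 and 0.47). Ahr, Arnt and Keap1 were then higher in pHep (2.74, 0.45 and 1.27). Hnf4a, one of the factors the cells were made with, was at 7.39 to 7.51 in MEF, 12.07 and 11.88 in iHepSCs and 13.42 in pHep, and with probe sets of suffix _x_at and _s_at left out its difference in iHepSCs was 0.13. Foxa2 rose by 6.24 in iHepSCs and 5.34 in pHep, and Nr1i2 (the pregnane X receptor) by 2.54 and 3.12. Nr1i3, the constitutive androstane receptor, lay between 5.24 and 5.34 on all arrays, including pHep.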

How the data were processed

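Expression was measured on 7 Affymetrix arrays of 3 groups. The authors processed the scans by RMA and deposited log2 values for 45101 probe sets (background correction, quantile normalization and summary per probe set). Software versions and a genome build are not given in the sources used here. Precision is limited by the number of arrays, which carry no read counts. Array medians lay between 6.28 and 6.33.

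Gene symbols came from the platform annotation. Of them, 34945 had 1 symbol, and 932 with several, 9160 with none and 64 controls were left out. For each of 18193 genes, the probe set of highest mean level on the 7 arrays was kept, with no filter on dim genes. Of the 47 conjugation genes, 12 had more than 1 probe set, and those others were fitted with all probe sets, an alternative chosen after the data were seen. Groups come from the sample labels. Comparisons used lmFit and eBayes of limma (3.58.1, under R 4.3.3; 1 mean per group, 4 residual degrees of freedom, prior of 2.11 degrees of freedom and SD of 0.162), with Benjamini-Hochberg adjustment over all genes and a threshold of 0.05. The fit was tested on simulated data. The members, gene lists, motifs and tests were chosen with earlier results of these data known.

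Named genes were, per family, those with the largest called rises (up to 4) and falls (up to 3) in iHepSCs and the largest in pHep and between them, those called in opposite directions, those the study lists, and those with the largest passage differences. In each list of other genes up to 2 rises and 2 falls were named. Other genes were named after their values were seen.

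Alternatives were the mean of all probe sets, leaving out _x_at and _s_at probe sets, a filter at a level of 6, quantile normalization again, centring (median, or Gapdh), a trend and a robust prior, dropping replicates in turn, the replicate block, a 2-fold floor, the methods' t-test and counting Gstcd. For Gapdh centring, the mean of its control probe sets was used.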

Additional observations from a re-analysis of the deposited data

Results flagged for a closer look

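Among the MEF arrays, 4 of the 47 conjugation genes had 1 array far from the other three by Dixon's test, where chance flags about 1 in 20 groups and 23.5% of all genes were so. Mgst3 was 11.41 on MEF replicate 1 against 9.50 to 9.67 on the others, Gstt1 was 7.82 against 7.29 to 7.36, and Gstm5 was 11.30 against 10.61 to 10.70. Ugt3a2 was 5.12 on MEF replicate 4 against 5.26 to 5.28. The cause was not tested.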

How the results depend on the processing

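The count of conjugation genes called higher in iHepSCs against MEF was 25 and stayed between 17 and 26 over all alternatives. Over 1722 values of single named genes under alternatives, 1588 kept their side of the threshold, 115 lost the call, 16 gained it and 3 changed sign with a call on one side. Of the 1588, 6 changed sign while not called on either side. The 3 were Ugp2 in iHepSCs against MEF with arrays centred on Gapdh (0.11) and Gstm7 with the mean of all probe sets (1.20 in pHep against MEF, -0.67 in iHepSCs against pHep). Leaving out replicates gave 21 to 26 genes higher and 2 to 4 lower in iHepSCs against MEF, 22 to 29 and 3 to 6 in pHep against MEF, and 11 to 15 and 10 to 17 in iHepSCs against pHep. For the other listed genes (donor supply, mercapturate steps, other enzymes, Nrf2 targets and regulators) the same ranges were 14 to 31 (23 with all arrays) and 3 to 12 (10), 25 to 37 (26) and 3 to 9 (4), and 4 to 12 (6) and 12 to 25 (17). Of these, leaving out iHepSC replicate 1 gave 14 higher and 3 lower in iHepSCs and replicate 2 gave 15 and 4, and leaving out MEF replicate 1 gave 9 lower in pHep and 12 higher against pHep.

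Centring on Gapdh, which moves the median of all genes by 0.49 in iHepSCs against MEF, 0.03 in pHep against MEF and 0.46 in iHepSCs against pHep, left 0 conjugation genes lower in iHepSCs (3 as deposited) and 8 lower than pHep (14). For the other listed genes it gave 4 lower in iHepSCs, 2 lower in pHep and 11 lower than pHep. The mean of all probe sets gave 7 of these lower in pHep, and the 2-fold floor 5 lower in iHepSCs and 2 lower in pHep. The genes at least 2-fold apart between P20 and P3 were 1 in place of 2 with the mean of all probe sets, with quantile normalization again and with Gapdh centring.

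The replicate numbers are shared between MEF and iHepSCs. Deviations of same-numbered arrays from their group means had correlations of -0.222 and -0.207. With 2 iHepSC arrays, 1 deviates exactly opposite to the other, so these values cannot tell whether same-numbered arrays share a batch. With the replicate block, which leaves 1 residual degree of freedom, 17 conjugation genes were higher and 0 lower in iHepSCs, 14 and 2 in pHep, and 2 and 2 in iHepSCs against pHep. With the replicate block the other listed genes were 10 higher and 2 lower in iHepSCs, 13 and 1 in pHep, and 0 and 8 against pHep. The cause of each of these moves was not tested. In the block, the pHep array, whose label holds no number, was placed with replicate 1. With 1 pHep array and 2 iHepSC arrays, a difference that was not called is not shown to be absent.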
